A study of Rattus norvegicus with 6 samples.

Results

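Immediate early genes are switched on within minutes of a growth signal or stretch, without new protein synthesis, and most of their mRNAs are short-lived. Many encode transcription factors, among them the Fos and Jun proteins that pair to form the AP-1 complex, and in heart muscle cells they are early markers of hypertrophic stimulation. A second arm of the same kind of response follows damage or misfolded protein and runs through Atf3, Ddit3 (CHOP) and the secreted factor Gdf15. The 9 genes described here stand for both arms: Fos, Jun, Junb, Egr1, Myc and Dusp1 for the immediate early response, and Atf3, Ddit3 and Gdf15 for the stress response. They were chosen by Ensembl rat gene ID from the 32883 genes of the count table. All 9 were found there, and all 9 passed the filter on low counts that left 13823 genes for testing.

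The study asked which transcripts come down with MBNL1 (muscleblind-like 1), an RNA-binding protein, in heart muscle cells. Ventricular cardiomyocytes of rats at postnatal days 1 to 2, depleted of other cells by pre-plating, carried FLAG-tagged MBNL1 from an adenovirus at a multiplicity of infection of 100 for 48 h. One group is RNA bound in an anti-FLAG immunoprecipitation (RIP, 3 libraries), and the other is Input, the 10% of each cleared lysate that went straight into TRIzol (3 libraries). The remaining lysate was kept overnight with antibody at 4 °C, so the RIP RNA was held longer before extraction than the Input RNA. Both groups carry the tagged protein. IgG control pulldowns and untransduced cells were not analysed here, so no value below separates binding to MBNL1 from binding to beads or antibody. A level in the lysate also cannot tell more expressing cells from more RNA per cell, and the cardiomyocyte label was not checked against marker genes because the table gives gene IDs only.

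The libraries held 17265349 to 18145453 counts in RIP and 19150577 to 19325661 in Input. One gene, ENSRNOG00000014076, took 23.5% ± 4.3 of the RIP counts and 8.35% ± 0.553 of the Input counts (SD, n = 3 each). It therefore bears on any value scaled to the library total. Levels are given as CPM, the reads of a gene relative to a common library size, after scaling each library by its TMM factor, a correction for such differences in composition. Enrichment and depletion below are thus relative to the bulk of the tested genes, and are not amounts of RNA recovered with MBNL1. The 9 genes together held 0.173% ± 0.00903 of all counts in RIP and 0.119% ± 0.00431 in Input (SD, n = 3 each), a description with no test. These are shares of the library total without TMM scaling, so ENSRNOG00000014076 bears on them too.

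Of these transcripts 7 (Fos, Jun, Junb, Egr1, Myc, Atf3 and Gdf15) were higher in the MBNL1 pulldown than in the lysate, 1 (Ddit3) was lower, and Dusp1 did not pass the test. The changes ranged from a 2.45-fold enrichment of Jun to a 1.66-fold depletion of Ddit3. The test was edgeR's quasi-likelihood F test over all tested genes, with Benjamini-Hochberg adjusted p under 0.05. Over all tested genes, 33% were higher in RIP by the same rule and 34.9% were lower, so 7 of 9 higher is above the background share and 1 of 9 lower is below it. Among the 7721 tested genes whose Input level lay within the range of these 9 genes (10 to 321 CPM), 41.6% were higher and 36.7% lower. The median log2 fold change of the 9 genes was 0.62, against -0.03 over all tested genes and 0.05 over the 7721 genes. No test was made of the list as such. With library totals in place of TMM, 25% of all tested genes were higher and 40.4% lower, and with the highest-count gene left out of the totals these shares were 37.5% and 30.1%. The 9 genes divided into 7 higher, 1 lower and 1 that did not pass under both.

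The 3 RIP values lay above the 3 Input values for 7 of the 9 genes, as they did for 34.3% of the tested genes, and below them for Ddit3, as for 36.8%. In CPM of the library total the 7 genes still had RIP above Input, where 25.8% of the tested genes did.

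**Figure D1:**
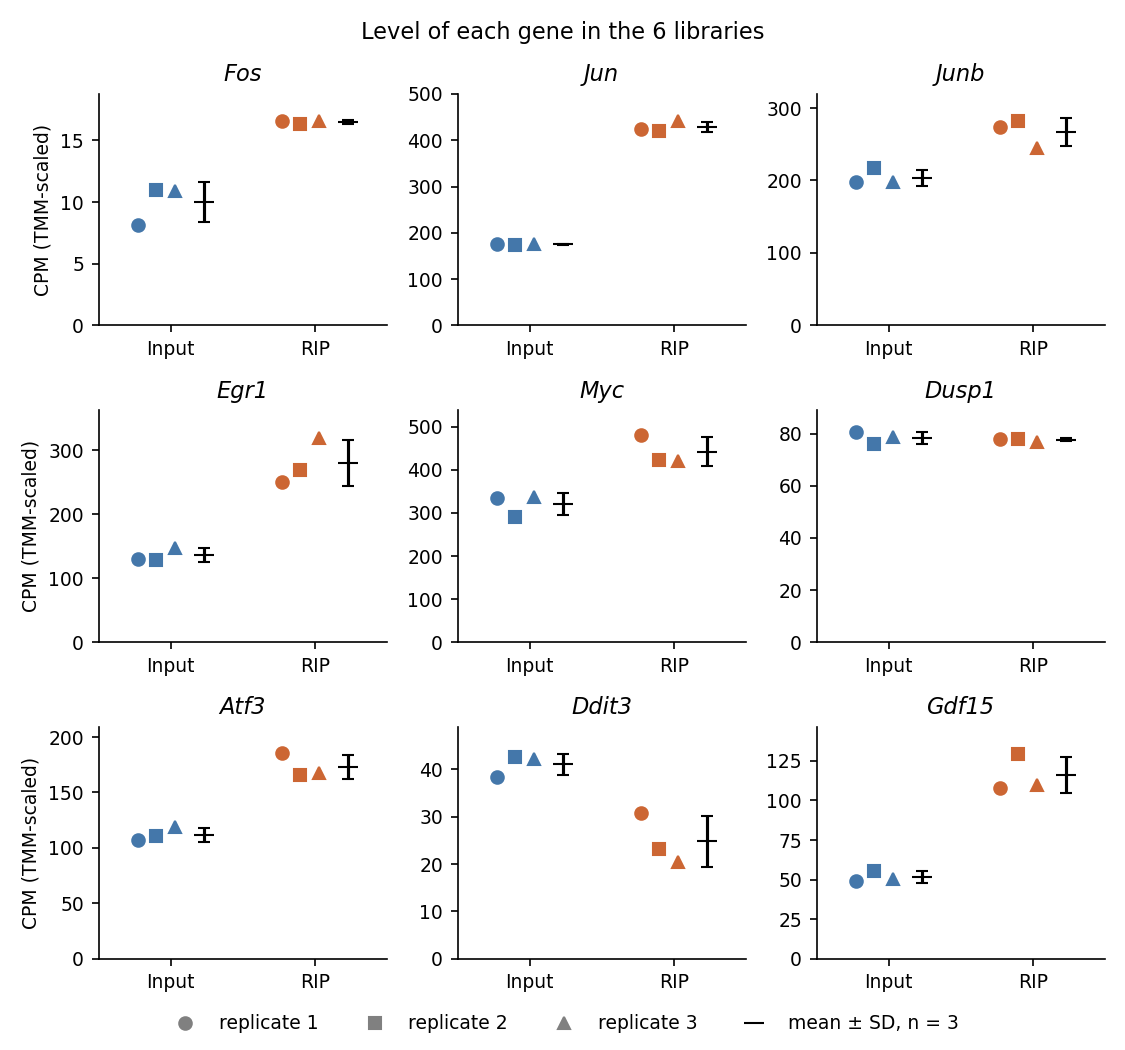
Level of each gene (vertical axis, TMM-scaled CPM, starting at 0) in the 3 Input libraries (blue) and the 3 RIP libraries (orange). Symbols mark the replicate number, and black bars the mean ± SD (n = 3). The groups are separate for every gene but Dusp1, with RIP above Input for 7 genes and below it for Ddit3.

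Among the AP-1 subunits, Jun showed the largest difference of the whole list. Jun (ENSRNOG00000026293), the leucine-zipper protein that can bind DNA as a homodimer or with a Fos partner, stood at 425, 420 and 442 CPM in RIP 1, 2 and 3 and at 175, 173 and 176 CPM in Input 1, 2 and 3. Every RIP library lay well above every Input library, and the spread within a group was small. This is a 2.45-fold enrichment, with a log2 fold change of 1.29 (SE 0.073; adjusted p = 8.39e-13 in edgeR) that exceeded those of 95.9% of the tested genes.

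Junb (ENSRNOG00000042838), a Jun relative with weaker transactivating activity that can oppose Jun at some promoters, was less enriched. Its levels were 274, 282 and 245 CPM in RIP and 198, 217 and 198 CPM in Input. The groups did not overlap, and the lowest RIP value, 245 CPM, stood against a highest Input value of 217 CPM. Enrichment was 1.31-fold, or 0.39 on the log2 scale (SE 0.078; adjusted p = 0.000145 in edgeR). The size of this change depended on the scaling: with library totals in place of TMM it was 0.23, with an edgeR adjusted p of 0.0378.

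Fos (ENSRNOG00000008015), which forms AP-1 only as the partner of a Jun protein, was the least covered gene of the list, with 159 to 302 counts per library. Its levels were 16.6, 16.3 and 16.6 CPM in RIP and 8.16, 11 and 10.9 CPM in Input. The 3 RIP libraries were nearly equal, and Input 1 was lower than the other Input libraries. The 1.64-fold enrichment corresponds to a log2 fold change of 0.72 (SE 0.12; adjusted p = 2.21e-05 in edgeR), which was 0.58 without Input 1. In Input its coefficient of variation was 16.2%, where counting error alone gives 7%. In RIP it was 1% where counting error alone gives 6%, so the 3 RIP values lay closer together than their precision.

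The other transcription factors of the immediate early response were enriched to different degrees. Egr1 (ENSRNOG00000019422), a zinc-finger factor induced through serum response elements, stood at 250, 270 and 320 CPM in RIP and at 130, 128 and 148 CPM in Input. All RIP values exceeded all Input values by a wide margin, with RIP 1 the lowest of the RIP libraries. Egr1 was enriched 2.07-fold, by 1.05 on the log2 scale (SE 0.089; adjusted p = 7.7e-10 in edgeR).

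Myc (ENSRNOG00000004500), a basic helix-loop-helix factor that drives growth and ribosome production, had more reads in the lysate than any other gene of the list, with 6192 to 6763 counts per Input library. Its levels were 480, 424 and 421 CPM in RIP and 334, 291 and 337 CPM in Input. The groups did not overlap, and RIP 1 was the highest library. The difference came to 1.38-fold, with a log2 value of 0.46 (SE 0.082; adjusted p = 3.47e-05 in edgeR).

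Dusp1 (ENSRNOG00000003977), the phosphatase that switches off MAP kinases and so limits the immediate early response, did not differ by the test. It stood at 77.8, 78 and 76.9 CPM in RIP and at 80.5, 75.9 and 78.6 CPM in Input, and the RIP values lay inside the Input range. On the log2 scale RIP minus Input was -0.01, with a 95% interval of -0.16 to 0.14 (adjusted p = 0.875 in edgeR). In CPM of the library total, Dusp1 had 69, 74.9 and 76.9 in RIP and 81.9, 83.6 and 82 in Input, so the groups no longer overlapped, as was the case with RIP below Input for 42.2% of the tested genes on that scale. The fit with library totals gave -0.16 (edgeR adjusted p = 0.115), and with the highest-count gene left out of those totals it gave 0.10 (edgeR adjusted p = 0.292). The direction for Dusp1 thus turns with the scaling.

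The 3 stress-response genes did not move together. Gdf15 (ENSRNOG00000019661), a secreted TGF-beta family member released by stressed heart cells, stood at 108, 129 and 110 CPM in RIP and at 48.9, 55.6 and 50.7 CPM in Input. The RIP values were all above the Input values, and number 2 was the highest library in both groups. Its 2.23-fold enrichment, 1.16 on the log2 scale (SE 0.084; adjusted p = 5.21e-11 in edgeR), came next to that of Jun.

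Atf3 (ENSRNOG00000003745), a stress-induced member of the ATF/CREB family that can pair with Jun proteins, showed a smaller difference. Its levels were 186, 166 and 168 CPM in RIP and 107, 111 and 119 CPM in Input, with no overlap. Atf3 was 1.54-fold higher in RIP, with 0.62 on the log2 scale (SE 0.076; adjusted p = 2.35e-07 in edgeR).

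Ddit3 (ENSRNOG00000006789), the CHOP factor induced by the integrated stress response and linked to cell death under lasting endoplasmic reticulum stress, went the other way. Its levels were 30.8, 23.2 and 20.5 CPM in RIP and 38.4, 42.5 and 42.1 CPM in Input. RIP 1 stood above the other RIP libraries, yet still below every Input library. Depletion was 1.66-fold, a log2 fold change of -0.73 (SE 0.11; adjusted p = 5.84e-06 in edgeR), and 21.7% of the tested genes had a lower one. Ddit3 had the widest spread among RIP libraries of the list, with a coefficient of variation of 21.6% where counting error gives 4.92%. RIP 1 was also the library in which ENSRNOG00000014076 took the most counts (28.1%, against 22.8% and 19.6% in RIP 2 and 3), and it had the lowest Egr1 level of the RIP libraries. The part of that gene's share in these differences was not tested. Without RIP 1 the log2 fold change of Ddit3 was -0.91, and without RIP 3 it was -0.60.

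**Figure D2:**
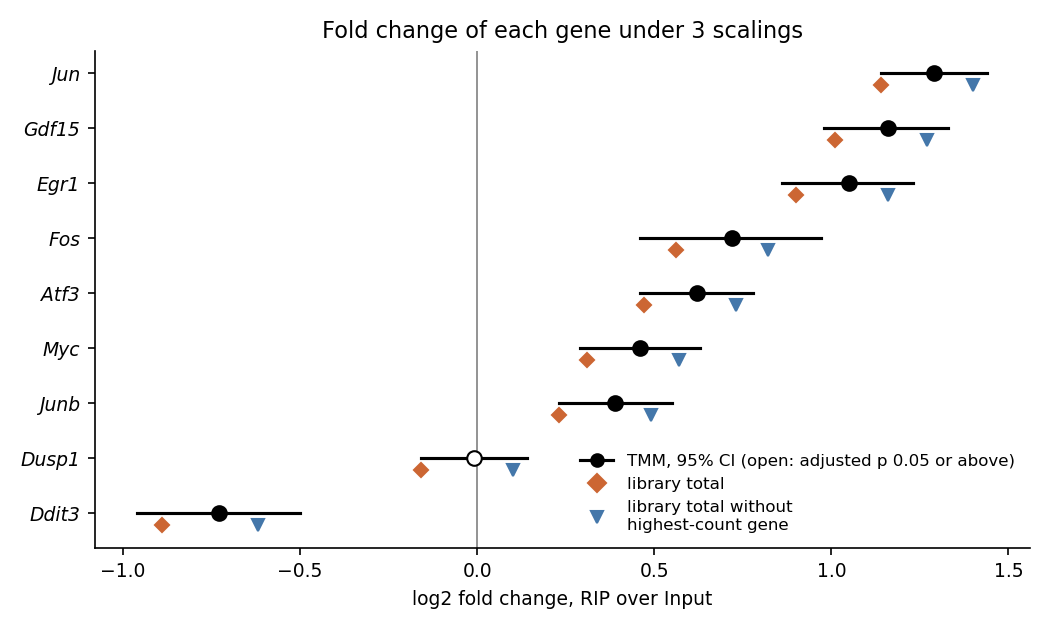
Log2 fold change of RIP over Input (horizontal axis) for each gene, ordered by size. Black circles and lines show the TMM-scaled edgeR estimate with its 95% interval (open circle: test not passed), orange diamonds the estimate with library totals and blue triangles that with the highest-count gene left out of the totals. From Jun at 1.29 to Ddit3 at -0.73, all but Dusp1 kept their side of 0 under all 3 scalings.

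In the order of fold change the genes stood as Jun, Gdf15, Egr1, Fos, Atf3, Myc, Junb, Dusp1 and Ddit3. A scaling factor per library cannot move the ratio of 2 genes within a library. Such ratios were therefore used to compare neighbours in the order. Over the 8 neighbouring pairs, the RIP and Input ratios overlapped in 5 pairs, namely Jun with Gdf15, Gdf15 with Egr1, Egr1 with Fos, Fos with Atf3, and Myc with Junb, so the order within these pairs is not beyond the spread of the libraries. They did not overlap for Atf3 with Myc, Junb with Dusp1, and Dusp1 with Ddit3. For Atf3 to Myc the gap was narrow, with a lowest RIP ratio of 0.386 and a highest Input ratio of 0.382. Among pairs further apart in the order, the ratios overlapped for Fos with Myc and for Atf3 with Junb. Of all 36 pairs of the 9 genes, 29 had ratios that did not overlap between RIP and Input, where 68.7% of the 95530753 pairs of tested genes did not. Pairs share genes and libraries, so these counts are a description, and a lack of overlap in itself sets no pair apart.

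For 6 pairs of related genes RIP and Input ratios were compared by exact permutation (two-sided). With 3 libraries in each group, p = 0.1 is the smallest this exact test can give. All 6 pairs had ratios that did not overlap between the groups, as 68.7% of all pairs of tested genes did, and reached that smallest value (exact permutation p = 0.1, also 0.1 after Benjamini-Hochberg adjustment over the 6), so none could pass a threshold of 0.05. Among the AP-1 subunits there were 1.55, 1.49 and 1.8 Jun reads for each Junb read in RIP 1, 2 and 3, against 0.886, 0.8 and 0.89 in Input. Jun thus had fewer reads than Junb in every Input library and more in every RIP library, a 1.87-fold shift of the ratio. The Fos to Jun ratio was 0.0392, 0.039 and 0.0377 in RIP and 0.0467, 0.0638 and 0.0622 in Input. Its mean log2 value was lower in RIP by 0.56 (difference -0.56). The Fos to Junb ratio was 1.27-fold higher in RIP, with 0.0607, 0.0581 and 0.068 in RIP and 0.0414, 0.051 and 0.0554 in Input. Here the gap was narrow, and the log2 difference of 0.35 was 0.23 without Input 1.

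Among the stress genes, the pairs with Ddit3 showed the widest shifts of the 6. Gdf15 had 3.5, 5.56 and 5.36 reads for each Ddit3 read in RIP, against 1.27, 1.31 and 1.2 in Input. Taken from the mean log2 ratios, the Gdf15 to Ddit3 ratio was 3.73-fold higher in RIP, the largest shift of the 6 pairs. The Ddit3 to Atf3 ratio was 0.166, 0.14 and 0.122 in RIP and 0.359, 0.382 and 0.353 in Input, a log2 difference of -1.37. The Gdf15 to Atf3 ratio was 1.45-fold higher in RIP, with 0.582, 0.777 and 0.653 in RIP against 0.457, 0.501 and 0.425 in Input. These are ratios of reads, which depend on transcript length as well as number, so only their change between RIP and Input is read.

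**Figure D3:**
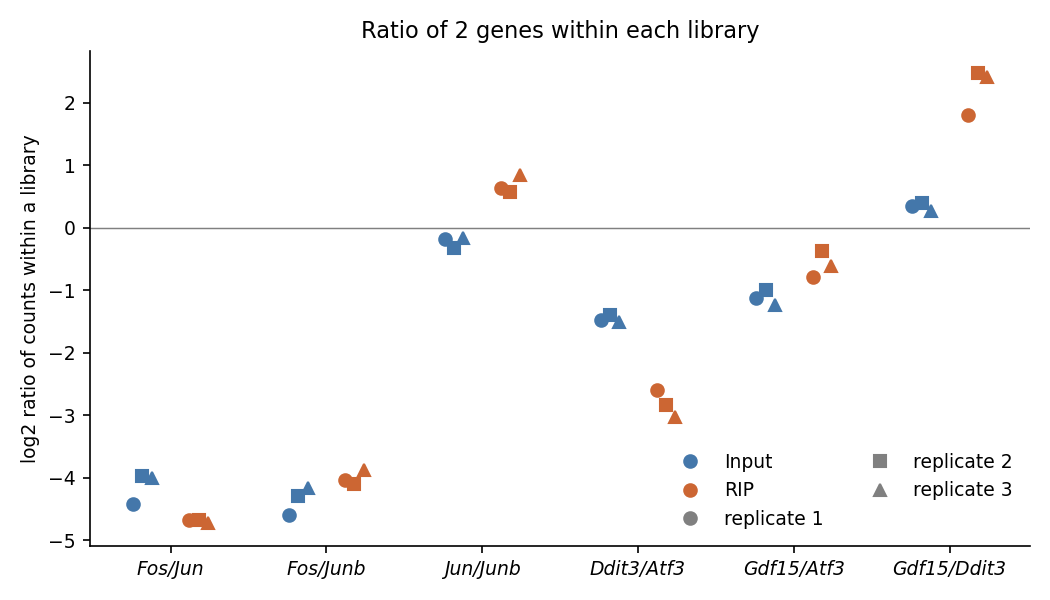
Log2 ratio of the counts of 2 genes within a library (vertical axis) for 6 pairs, in Input (blue) and RIP (orange), with symbols for the replicate number. The groups are separate in all 6 pairs, and the widest gap is that of Gdf15 over Ddit3, whose ratio is 3.73-fold higher in RIP.

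Most of these enrichments were moderate on the scale of the whole pulldown. Gdf15 and Egr1 had a higher fold change than 94.1% and 92.1% of the tested genes, Fos and Atf3 than 83.5% and 80.4%, and Myc and Junb than 73.8% and 70.4%. Dusp1 stood near the middle, above 50.7%. In a test against a change of 1.5-fold (edgeR's glmTreat, chosen after the data were seen), 3 of the 9 genes were higher by more than that limit, namely Jun (adjusted p = 2.65e-09), Gdf15 (5.39e-07) and Egr1 (1.93e-05). By that rule 13.7% of the tested genes were higher and 17.7% lower. No gene of the list was lower by more than 1.5-fold after adjustment in edgeR's glmTreat. Ddit3 alone was at an unadjusted p under 0.05 in that direction (edgeR's glmTreat, adjusted p = 0.099).

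**Figure D4:**
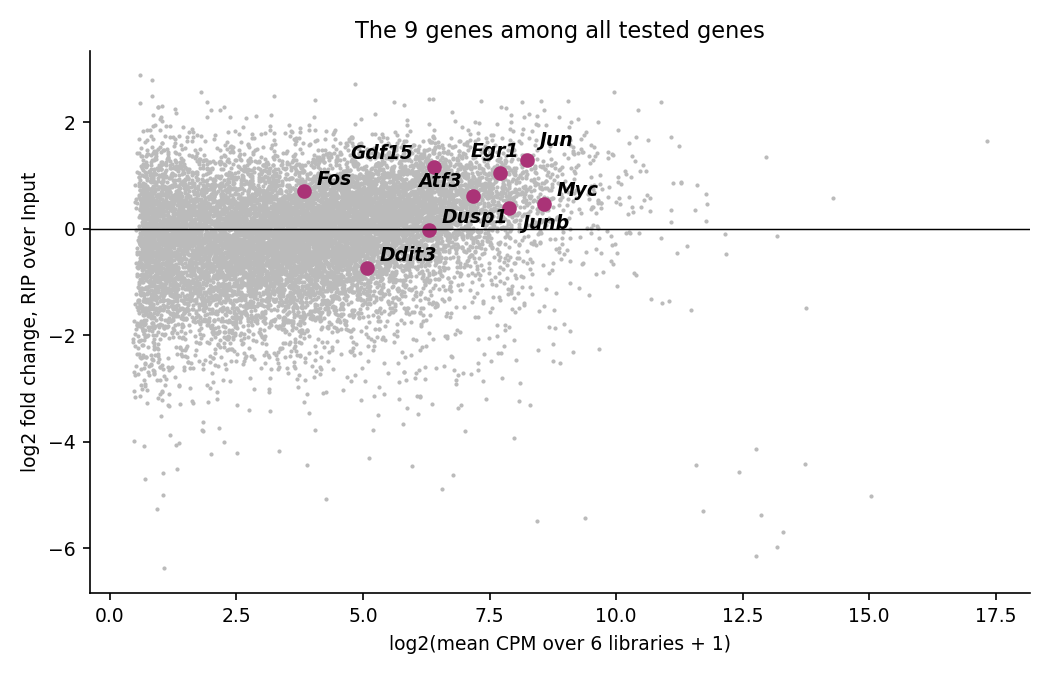
Log2 fold change of RIP over Input (vertical axis) against the log2 mean CPM plus 1 over the 6 libraries (horizontal axis) for all 13823 tested genes (grey), with the 9 genes marked and named. Jun, Gdf15 and Egr1 lie towards the upper side of the cloud, Dusp1 near 0 and Ddit3 on the lower side at -0.73.

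The ratio of RIP to Input by replicate number showed how evenly each difference was carried. For Jun it was 2.42, 2.42 and 2.51 in numbers 1, 2 and 3 (TMM-scaled), and for Gdf15 2.21, 2.32 and 2.17. The values for Egr1 were 1.92, 2.1 and 2.16, and those for Myc 1.44, 1.46 and 1.25. All 4 genes stayed above 1 in every number. Fos (2.04, 1.48 and 1.52), Atf3 (1.74, 1.49 and 1.41) and Junb (1.39, 1.3 and 1.24) had their highest ratio in number 1, as did Ddit3 (0.803, 0.545 and 0.487), the gene with the widest range relative to its size. For Dusp1 the ratios lay on both sides of 1 (0.967, 1.03 and 0.978). The labels do not say that a shared number marks a shared lysate.

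The mean profile of the 9 genes over the 6 libraries, in log2(CPM + 1) centred on its own mean, was 0.54 higher in RIP than in Input. The tested genes of at least 5 CPM whose profile lay nearest to it were ENSRNOG00000016316 and ENSRNOG00000020047. Their root mean square distances over the 6 libraries were 0.0149 and 0.0223 on the log2 scale, among 9742 candidates. They are known here by ID only.

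Some reads of 3 of these genes could come from a neighbour. In RefSeq's annotation of the rat assembly GRCr8 the span of Ddit3 overlaps those of Mars1 and LOC134479709, that of Gdf15 overlaps Lrrc25, and that of Atf3 overlaps Garin4. The strand setting of the counting is not given in the sources used here, and how reads in such overlaps were assigned was not tested. The spans of the other 6 genes overlap no other gene in RefSeq's annotation. Overlaps in the annotation used for the counting were not checked. Other immediate early and stress genes could not be added, since the count table pairs no ID with a symbol.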

How the data were processed

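The deposited table holds raw read counts per Ensembl rat gene ID, and STAR, featureCounts and DESeq2 are named in the submitters' processing notes with no role given. For versions, genome build, annotation and strand setting, the sources used here give nothing. The 9 IDs and their symbols came with the definition of the gene list. RefSeq's rat table lists all 9 symbols but carries an Ensembl ID for 0 of 47357 genes, so the pairing was not checked against it, and transcript sequences were not used here. The planned pathway and cell type lists were therefore not run.

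Genes were filtered with filterByExpr (minimum count 10, minimum total 15), which left 13823. The quasi-likelihood F test of edgeR 4.0.16, run in R 4.3.3 on TMM-scaled counts without covariates, compared the groups, and p-values were adjusted by Benjamini-Hochberg over all tested genes. The standard error is the size of the log2 fold change over the square root of F. Ratios within a library used counts plus 0.5. The test was tried on simulated counts in which only a small share of genes differed, balanced between up and down. In the data 33% of tested genes were higher and 34.9% lower, so the simulation does not check the calls under such wide differences. Whether a group's libraries are separate cultures is not in the labels, so the p-values reflect the spread among these libraries alone, which may be technical. Libraries of a group differed by more than sampling noise. All 9 genes were named by rule. The genes and pairs were chosen with earlier results of these data known. Alternatives were DESeq2 1.42.0, limma-voom (limma 3.58.1), other scalings and filters, thinning, a replicate block and leaving out libraries.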

Additional observations from a re-analysis of the deposited data

How the results depend on the processing

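Under 18 other fits and 2 more with the highest-count gene left out of the scaling, added after seeing the data, 7 of the 9 genes were higher in RIP and 1 lower, and the 8 genes past the threshold in the main comparison kept their direction and their call. Against a 1.5-fold limit (edgeR's glmTreat, also added), 3 were higher and 0 lower, with 4 and 1 at an unadjusted p under 0.05, because the test asks for a change beyond that limit. The median log2 fold change of the 9 genes was 0.47 with library sizes only and 0.73 with the highest-count gene left out of them. Both settings move all genes alike, and the median of all tested genes was then -0.18 and 0.08. Leaving out libraries or same-numbered pairs gave medians of 0.53 to 0.69. Dusp1 changed sign without passing the test in DESeq2 (0.01), with DESeq2 size factors (0.01), with the highest-count gene left out of library sizes (0.10) and without replicate 1 in both groups (0.00). Leaving out libraries or pairs gave -0.04 to 0.00 for it. Its adjusted p ranged from 0.115 to 0.988. With the replicate block, 7 genes were higher and 1 lower. The numbers were not taken as pairs because the labels do not say that they mark a shared lysate. The correlation between deviations of same-numbered libraries was 0.053, 0.112 and 0.057, and every RIP library correlated best with the Input of its own number. The 6 pair ratios kept their direction with pseudocounts of 0 and 5 and without each library. Depth limits Fos most, at 159 to 302 counts per library.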
